A study of Mus musculus with 6 samples.

Results

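Purkinje cells carry the output of the cerebellar cortex. In these neurons glutamate released by parallel fibres acts on metabotropic receptors, which signal through a chain of proteins to calcium stored in the endoplasmic reticulum. The genes described here code for 7 proteins of that chain. They are the scaffold Homer3, the G protein alpha subunits Gnaq and Gna11, the phospholipase Plcb4, the calcium channel Itpr1, the channel's partner Car8 and the phosphatase Inpp5a. They were chosen by name for their place in this cascade, and all 7 were found among the 21037 genes of the deposited gene table and passed the filter on low values.

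RNA of the vermis, the midline strip of the cerebellum, was sequenced from mice aged 8 weeks. The study compared 3 LINE-1a mice, in which the retrotransposon LINE-1 is said to be activated, with 3 dCas mice, the controls. The labels give each mouse as 1 library and name the strains only. The sources used here do not give the promoter that drives a transgene, the guide sequences or the genetic background. Libraries held 23483158 to 33445789 reads assigned to features of the gene table. No label tells whether the mice of a group were littermates, and the p-values cover only the spread between these 6 libraries. The libraries stand apart in 2 ways that the labels do not name: LINE-1a 1 and LINE-1a 2 lacked the Y-linked expression of the other 4, and 4 of 5 choroid plexus markers were high in dCas 1, LINE-1a 2 and LINE-1a 3. The results are therefore also given within these subsets.

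Gnaq and Gna11 couple these receptors to phospholipase C, and Homer proteins hold them close to the IP3 receptor. Plcb4 is a phospholipase C beta of Purkinje cells and splits the membrane lipid PIP2 into IP3 and diacylglycerol. IP3 opens Itpr1, which lets calcium out of the store. Car8 is related to the carbonic anhydrases without having their activity and lowers the affinity of Itpr1 for IP3, and Inpp5a removes a phosphate from IP3 and so ends the signal. Mutations in several of these genes cause ataxia in mice or in people.

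Along this chain the mean levels differed between the groups in opposite directions. Itpr1 and Car8 were lower in every LINE-1a library than in any dCas library, each with a LINE-1a mean 0.665 times the dCas mean. Inpp5a and Plcb4 were higher in every LINE-1a library, with means 1.41 and 1.20 times those of dCas. The upstream genes Homer3, Gnaq and Gna11 had overlapping groups and mean ratios between 0.971 and 1.03. None of the 7 genes passed a Benjamini-Hochberg adjusted p of 0.05 in limma, a test in which 0.146% of the 15800 features were called, 0.133% as higher and 0.0127% as lower in LINE-1a vermis.

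Of the 7 genes, 4 had groups that did not overlap, against 22.1% of all tested features. By direction, 2 genes lay below and 2 above, against 12.3% and 9.88% of all features. At an unadjusted p under 0.05 limma gave 2 of the 7, Inpp5a and Car8, where 15.3% of all features were under it. On whole reads recovered from the same table, edgeR and DESeq2 also called 0 of 7, where they called 0.146% and 0.899% of all features. Each put 3 of 7 under an unadjusted p of 0.05, against 14.5% of all features for edgeR and 15.9% for DESeq2. The median log2 fold change of the 7 genes was 0.00, beside 0.03 for all tested features.

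**Figure D1:**
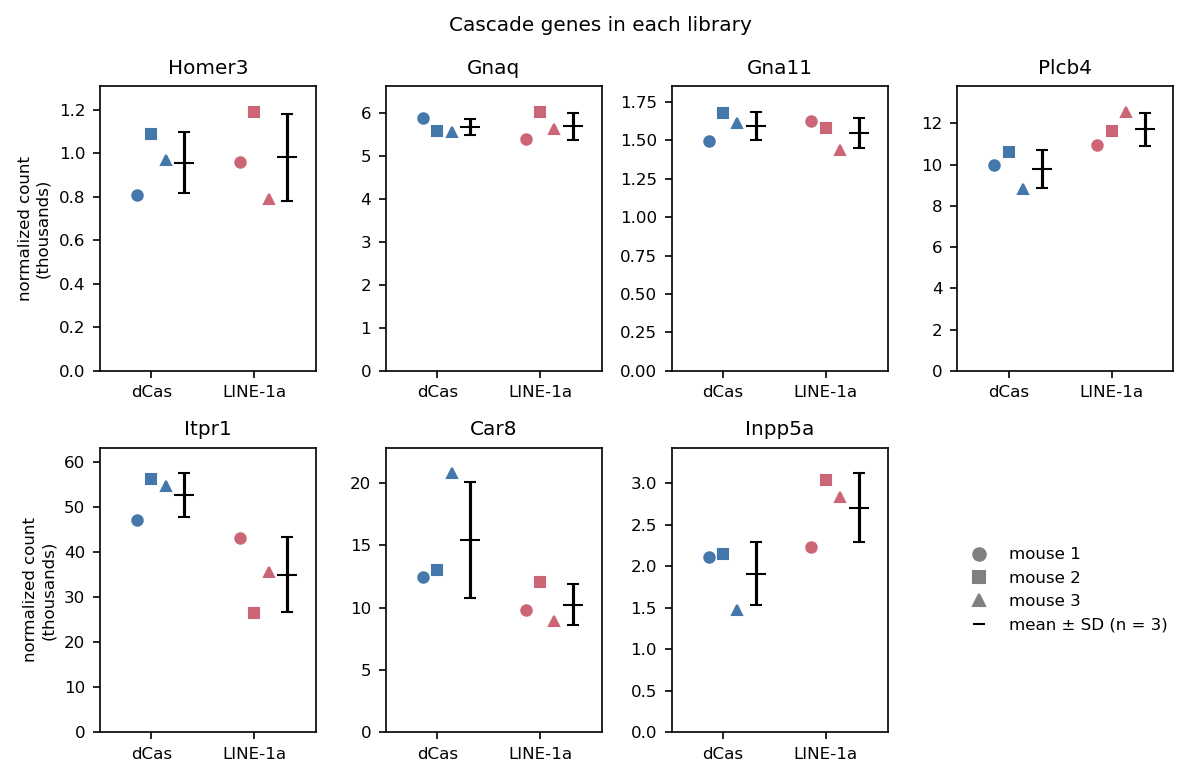
Normalized counts on a linear scale (vertical axes, from 0) of the 7 cascade genes in the dCas (blue) and LINE-1a (red) libraries, 1 point per mouse, with the mean and SD of each group in black (n = 3). The groups are apart for Plcb4, Itpr1, Car8 and Inpp5a and overlap for Homer3, Gnaq and Gna11.

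The receptor end of the cascade came first. Homer3 lies on chromosome 8 (GRCm38, 70282827 to 70294361, plus strand). It ranged from 810.0 to 1089 normalized counts in dCas and from 792 to 1190 in LINE-1a libraries, so the LINE-1a values spanned the whole dCas range. Its log2 fold change was 0.03, with a 95% interval of -0.39 to 0.45 (adjusted p = 0.948 in limma). The exons of Homer3 share 874 bases, 25.4% of their length, with Ddx49 on the opposite strand. Whether reads were counted by strand is unstated, and reads of Ddx49 cannot be told apart there.

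The G protein genes were the steadiest of the 7. Gnaq (chromosome 19, 16132831 to 16387463, plus strand) was 5674 ± 185 normalized counts (SD, n = 3) in the controls and 5692 ± 313 in LINE-1a vermis. Its log2 fold change was 0.00, with a 95% interval of -0.32 to 0.33 (limma adjusted p = 0.991). Within a group its coefficient of variation was 3.26% in dCas and 5.50% in LINE-1a mice, where the median tested feature had 12.7% and 17.8%.

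Gna11 (chromosome 10, 81528724 to 81545190, minus strand), the close relative of Gnaq, was 1594 ± 91.2 in the controls and 1548 ± 98.4 in LINE-1a vermis. Its log2 fold change was -0.04, with an interval of -0.34 to 0.26 (limma adjusted p = 0.884). The count of Gnaq was 3.57 ± 0.322 times that of Gna11 in dCas and 3.69 ± 0.322 times in LINE-1a libraries, so the balance of the pair differed by less than the spread between mice. How reads matching both of these related genes were counted is unstated.

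Plcb4 (chromosome 2, 135659011 to 136014593, plus strand) makes the IP3. It was counted at 9964, 10604 and 8810 in dCas 1 to 3 and at 10965, 11617 and 12557 in LINE-1a 1 to 3. All LINE-1a values lay above all dCas values, the closest pair being dCas 2 and LINE-1a 1. The log2 fold change was 0.26 ± 0.17 (SE), with an interval of -0.13 to 0.65 (limma adjusted p = 0.432). It was 0.51 when libraries were scaled to the mean log2 level of 8 Purkinje markers, a scaling that also moved the median of all features from 0.03 to 0.27.

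Inpp5a (chromosome 7, 139389109 to 139579652, plus strand) removes the IP3. It was counted at 2108, 2152 and 1479 in the dCas libraries and at 2239, 3041 and 2834 in the LINE-1a libraries. LINE-1a 1 was close to the dCas values, and dCas 3 was the lowest of the 6. The log2 fold change was 0.51 ± 0.19 (SE), with an interval of 0.08 to 0.94 (limma adjusted p = 0.325). Without dCas 3 it was 0.33, and scaled to the Purkinje markers 0.76, where the median of all features was 0.27. The exons of Inpp5a share 246 bases with Nkx6-2 on the opposite strand, 4.36% of their length.

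Plcb4 and Inpp5a are the 2 genes of the cascade that lay higher together, and their promoters are shown for that reason. RefSeq start sites on GRCm38.p6 gave 2 windows for each of these genes, from 250 bases before to 50 bases after the start. The first window of each follows, 5′ to 3′ on the plus strand, at chr2:135659297-135659596 for Plcb4 and at chr7:139388859-139389158 for Inpp5a. Capitals mark GGGCGG, the GC box that Sp-family factors bind, or its reverse complement CCGCCC, with overlapping matches joined.
Plcb4: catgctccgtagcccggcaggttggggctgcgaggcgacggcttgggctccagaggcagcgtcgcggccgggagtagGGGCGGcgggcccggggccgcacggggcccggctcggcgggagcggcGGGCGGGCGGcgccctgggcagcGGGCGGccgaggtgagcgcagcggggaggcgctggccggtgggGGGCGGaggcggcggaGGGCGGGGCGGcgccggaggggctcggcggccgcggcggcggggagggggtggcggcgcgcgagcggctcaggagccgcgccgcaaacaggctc
Inpp5a: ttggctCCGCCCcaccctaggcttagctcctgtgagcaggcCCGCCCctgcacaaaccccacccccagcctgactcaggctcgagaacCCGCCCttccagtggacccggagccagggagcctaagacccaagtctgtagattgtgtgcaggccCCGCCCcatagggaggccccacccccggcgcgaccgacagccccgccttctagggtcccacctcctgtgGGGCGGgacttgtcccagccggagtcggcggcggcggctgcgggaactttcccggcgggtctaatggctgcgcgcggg

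The Plcb4 window held 7 GC boxes and the Inpp5a window 5, with a GC content of 84.0% and 70.3%. The second windows of both genes, at the starts further downstream, held 0 GC boxes, at 44.3% and 51.7% GC. Windows were also found for Homer3, Gnaq and Gna11, which held 5, 5 and 2 GC boxes although these genes did not lie apart between the groups. No window was available for Itpr1 or Car8, so the promoters of the lower genes could not be compared. Of 32544 different promoter windows of the same length, 35.9% held at least 1 GC box, and the median GC content was 53.0%. AGGTCA, the core of the sites bound by the Purkinje regulator ROR alpha, was searched on both strands and found in 1 of the 7 windows, that of Homer3, and in 16.2% of all windows. It overlaps no GC box by its letters. A match is a description of the sequence and says nothing of binding.

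Itpr1 (chromosome 6, 108213096 to 108551109, plus strand) took 0.241% of all reads of the gene table on average in dCas mice, and 0.173% in LINE-1a mice. It was counted at 47160, 56260 and 54681 in dCas 1 to 3 and at 43144, 26481 and 35559 in LINE-1a 1 to 3. The LINE-1a values were all below the dCas values, with LINE-1a 1 close to dCas 1 and LINE-1a 2 far below. The log2 fold change was -0.61 ± 0.27 (SE), with an interval of -1.23 to 0.00 (limma adjusted p = 0.325). It was -0.42 without LINE-1a 2 and -0.36 when scaled to the Purkinje markers. That scaling moved the median of all features up as well, from 0.03 to 0.27. Of the Itpr1 exon bases, 0.988% are shared with Gm44101 and 0.590% with Gm44040, both on the opposite strand.

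Car8 (chromosome 4, 8143362 to 8239041, minus strand) was counted at 12453, 13000 and 20768 in dCas and at 9776, 12052 and 8909 in LINE-1a libraries. dCas 3 stood well above the other controls, and LINE-1a 2 was just below dCas 1. The log2 fold change was -0.56 ± 0.24 (SE), with an interval of -1.10 to -0.02 (limma adjusted p = 0.325). Without dCas 3 it was -0.32, and scaled to the Purkinje markers -0.31, where the median of all features was 0.27. The spread within the controls, a coefficient of variation of 30.2%, was the largest of the 7 genes.

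Per kilobase of annotated exon, the mean levels in dCas ran in the order Car8 (3999 ± 1207 normalized counts per kb, SD), Itpr1 (2877 ± 265), Plcb4 (1092 ± 101), Gnaq (917 ± 29.9), Gna11 (389 ± 22.3), Inpp5a (339 ± 66.6) and Homer3 (278 ± 40.8). Car8 and Itpr1 lay within 1 SD of each other's range, as did Gna11 and Inpp5a, and Inpp5a and Homer3. In LINE-1a vermis the order was the same except that Inpp5a (479 ± 73.7 per kb) stood above Gna11 (378 ± 24.0). There Itpr1 was 1914 ± 455 and Plcb4 1306 ± 89.3 per kb, so the gap between the channel and its upstream enzyme was narrower. The lengths are unions of all exons in GENCODE M21, from 1 annotated transcript for Car8 to 15 for Plcb4, and a gene that uses few of its exons is understated.

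Ratios within a library are free of the scaling between libraries, and 8 were computed, chosen with the values known. The count of Itpr1 was 4.73, 5.31 and 6.21 times that of Plcb4 in the dCas libraries and 3.93, 2.28 and 2.83 times in the LINE-1a libraries. Over Inpp5a it was 22.4, 26.1 and 37.0 times in dCas and 19.3, 8.71 and 12.5 times in LINE-1a. Both ratios were lower in every LINE-1a library, by 0.87 and 1.12 on the log2 scale as a difference of group means. That order was fixed by the choice of genes, since Itpr1 lay below and Plcb4 and Inpp5a above all controls. In each case the two-sided exact permutation test gave p = 0.1, the smallest that 3 against 3 libraries allow. The Benjamini-Hochberg value was 0.2 over the 8 ratios. These p-values were fixed too and add nothing to the separation of the single genes.

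Car8 and Itpr1, the inhibitor and its channel, did not separate the groups by their ratio. The count of Car8 was 0.292 ± 0.0781 times that of Itpr1 in dCas and 0.311 ± 0.126 times in LINE-1a vermis (exact permutation p = 0.9), and leaving out 1 library moved the log2 difference of 0.05 to between -0.26 and 0.26. The genes were lowest in different mice. LINE-1a 2 had the lowest Itpr1 and the highest Car8 of the LINE-1a group, where the ratio was 0.455, beside 0.227 for LINE-1a 1 and 0.251 for LINE-1a 3.

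Calb1, which codes for the calcium buffer calbindin of Purkinje cells, served as a reference for Purkinje RNA, at 5801 ± 657 in the controls and 5873 ± 1109 in LINE-1a vermis. Itpr1 was 9.05, 9.90 and 8.40 times Calb1 in dCas and 7.19, 3.83 and 7.56 times in LINE-1a libraries. Car8 was 2.39, 2.29 and 3.19 times Calb1 in dCas and 1.63, 1.74 and 1.89 times in LINE-1a libraries. Both ratios stayed apart between the groups, with exact permutation p = 0.1 for each. Calb1 is 1 of 8 Purkinje markers, and its own log2 fold change was 0.01. Of the 8, 5 had a lower LINE-1a mean, among them Rgs8 (-0.98) and Pcp2 (-0.36), and 3 a higher one. Scaled to all 8 markers, Itpr1 was at -0.36 and Car8 at -0.31, with the median of all features at 0.27. Ratios to single markers other than Calb1 were not computed, so the separation is shown for Calb1 only. Without LINE-1a 2 the log2 difference of the Itpr1 ratio moved from -0.62 to -0.30.

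The genes that lay higher did not stay apart over Calb1. Plcb4 was 1.71 ± 0.310 times Calb1 in dCas and 2.06 ± 0.534 times in LINE-1a vermis (exact permutation p = 0.6). Inpp5a was 0.337 ± 0.0957 and 0.472 ± 0.118 times Calb1 (exact permutation p = 0.3). Without dCas 3 the log2 difference of the Inpp5a ratio moved from 0.50 to 0.24 and that of the Plcb4 ratio from 0.25 to 0.09, and without LINE-1a 3 they were 0.31 and 0.05.

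**Figure D2:**
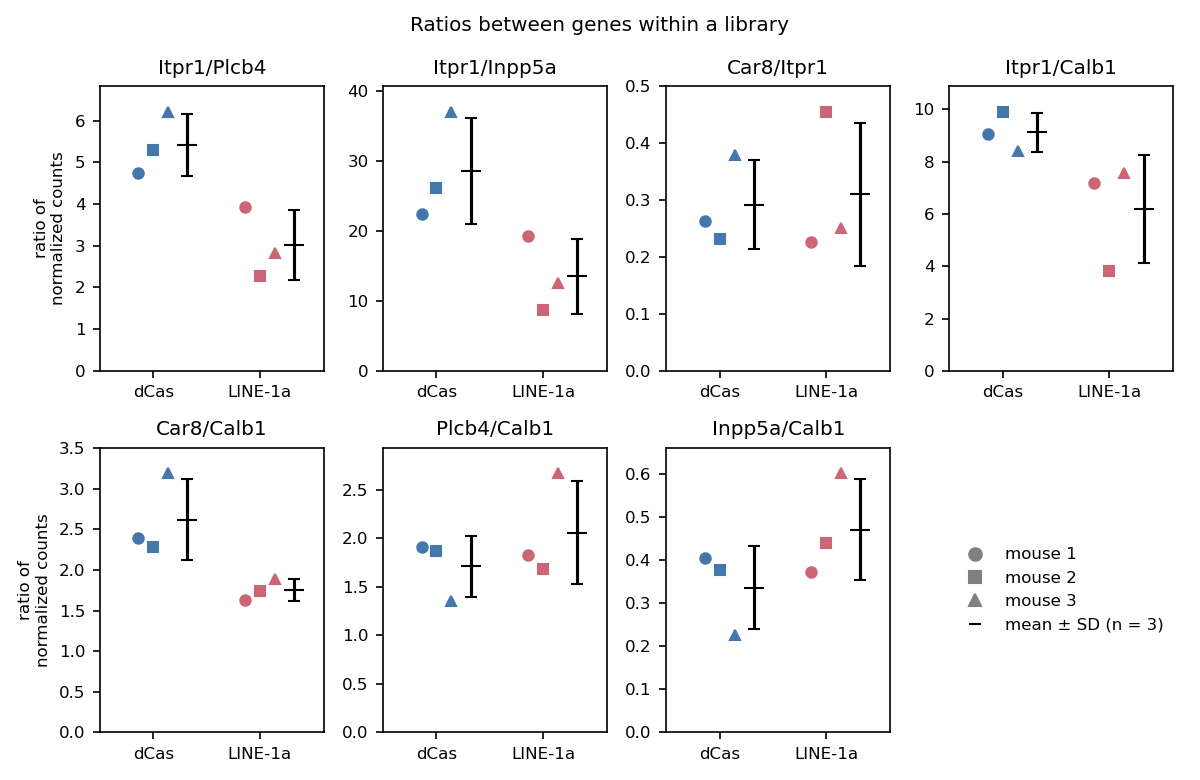
Ratios of normalized counts of 2 genes within a library (vertical axes, from 0) in dCas (blue) and LINE-1a (red) mice, 1 point per mouse, with group mean and SD in black (n = 3). Itpr1 is lower in every LINE-1a library relative to Plcb4, Inpp5a and Calb1, and Car8 is lower relative to Calb1, while Car8 relative to Itpr1 overlaps.

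Purkinje identity was read from 8 markers, all detected in every library, which shows that the tissue held these cells. Their summed level ran from 76902 to 86242 normalized counts in dCas and from 51896 to 70152 in LINE-1a libraries. Rgs8, given below, made up the largest part of that sum, and without it the groups would overlap. None of the 8 was called by limma (1 at an unadjusted p under 0.05), and the median log2 fold change was -0.18. Relative to the dCas mean, the median marker stood at -0.04, 0.11 and -0.43 in LINE-1a 1, 2 and 3, so the mouse with the lowest Itpr1 was not the one with the lowest Purkinje markers. Rgs8, a regulator of G protein signalling, was counted at 38534, 41740 and 37210 in dCas and at 29962, 11774 and 22091 in the LINE-1a group (log2 fold change -0.98, limma adjusted p = 0.325). Like Itpr1 it was below all controls in every LINE-1a library and lowest in LINE-1a 2, and without LINE-1a 2 its value was -0.60.

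Ppp1r17, a phosphatase inhibitor of Purkinje cells, lay below without overlap (-0.41), and Pcp2 (-0.36) and the glutamate transporter Slc1a6 (-0.40) had lower means with overlap. Without LINE-1a 3 Pcp2 was at -0.14, without LINE-1a 2 at -0.55, and without dCas 3 Slc1a6 was at -0.19. Gng13 (0.05), Dner (0.12) and Itpka (-0.01) had means close together, and leaving out 1 library moved Dner to between 0.01 and 0.27. In bulk tissue fewer Purkinje cells and less RNA per cell cannot be told apart.

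Markers of some other cells were low in the same libraries. The medians of the oligodendrocyte markers relative to the dCas mean were -0.03, -1.23 and -0.62 on the log2 scale in LINE-1a 1, 2 and 3, the same order as Itpr1 at -0.28, -0.99 and -0.56. Car8, at -0.62, -0.31 and -0.75, did not share that order. All 6 oligodendrocyte markers had a log2 fold change below 0, and their summed level was 264491 to 349415 in dCas and 122808 to 282563 in LINE-1a libraries. All 6 astrocyte and Bergmann glia markers were below 0 as well, summing to 78396 to 93516 and 39911 to 82301. The 4 tested markers of cerebellar nuclei and brainstem followed the order of Itpr1, at -0.14, -1.39 and -0.54. Endothelial markers were below 0 in 4 of 5 cases, with medians of -0.06, -0.45 and -0.56, lowest in LINE-1a 3.

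Markers of other cells did not share the order of Itpr1. The medians of molecular layer interneuron markers were 0.11, 0.36 and -0.06 and those of microglia 0.33, 0.05 and 0.06. Granule cell markers had medians between -0.08 and 0.04 in all 6 libraries, but their members differed. Cbln3, a synaptic organizer of granule cells, was 30968, 41767 and 45001 in dCas and 30157, 16064 and 22306 in LINE-1a mice (-0.81), below all controls. Fat2 lay below as well (-0.23) and Grin2c above (0.72), and the summed granule level was 84238 to 101646 in dCas against 73074 to 87154. No list had a marker at 0 in all libraries, and the part of these markers in the results was not tested.

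Choroid plexus markers split the libraries differently from the strains. Their summed level was 83902 for dCas 1, 35158 for LINE-1a 2 and 105232 for LINE-1a 3, while the other libraries held between 928 and 1514. Most of that sum is Ttr. Folr1, Kcne2 and Kl split the libraries in the same way, but Clic6 did not, being highest in dCas 3 at 760 and lower in LINE-1a 2 at 371. The log2 fold changes of Itpr1, Car8, Inpp5a and Plcb4 were -0.36, -0.75, 0.33 and 0.18 in the libraries low in these markers, and -0.62, -0.27, 0.48 and 0.28 in those high in them. Each is in the direction of the whole comparison, from 1 library against 2. That could not differ, because groups without overlap keep their direction in any subset, so only the sizes add anything.

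Sex was partly confounded with strain. By Y-linked genes LINE-1a 1 and LINE-1a 2 were female and the other 4 libraries male. The single male LINE-1a mouse differed from the 3 dCas mice by -0.56 for Itpr1, -0.75 for Car8, 0.59 for Inpp5a and 0.36 for Plcb4 on the log2 scale. For Homer3 it differed by -0.26, against a difference of 0.03 with all libraries, and both female mice are LINE-1a, so that strain and sex cannot be told apart for them.

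**Figure D3:**
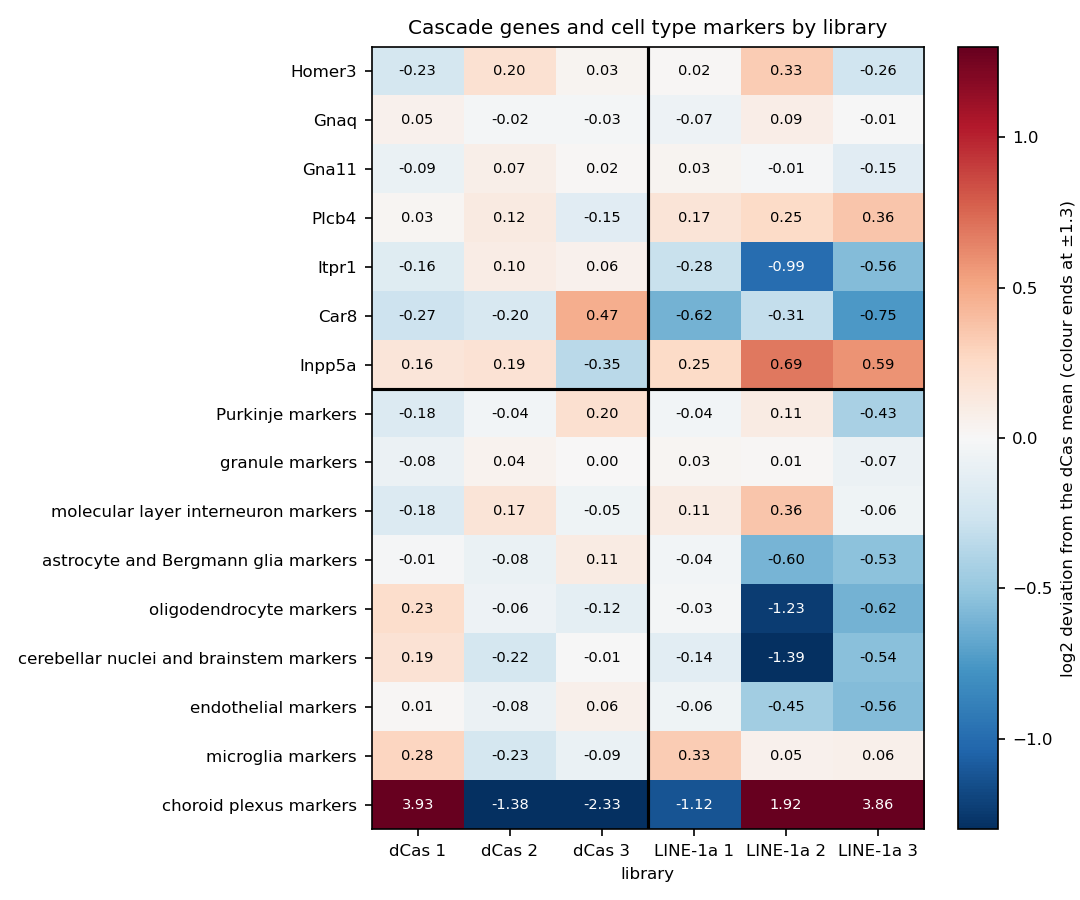
Log2 deviation from the dCas mean (colour and printed value) of the 7 cascade genes and of the median of 9 cell type marker lists (rows) in the 6 libraries (columns). Itpr1 and Car8 are negative and Plcb4 and Inpp5a positive in all LINE-1a libraries, and oligodendrocyte markers are lowest in LINE-1a 2, at -1.23, where Itpr1 is lowest too. Car8 is lowest in LINE-1a 3, at -0.75.

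The profile of each gene over the 6 libraries was compared with those of 11792 genes by the root mean square difference of log2 deviations. Among the 3 genes closest to Itpr1 were Sdf4, a calcium-binding protein of the Golgi, at 0.0419, and Klhl23 at 0.0485, against a median of 0.416. Closest to Inpp5a were Etv6 (0.0400), Prpsap1 (0.0423) and Zdhhc18 (0.0502). Car8 had no profile as close, with Frmpd3 at 0.104. Within the cascade the pair Gnaq and Gna11 lay closest (0.107), then Homer3 and Gna11 (0.161), Gnaq and Plcb4 (0.161), and Plcb4 and Inpp5a (0.191). Car8 and Inpp5a lay farthest apart, at 0.688.

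Around the 7 genes, 71 further genes of the pathway were listed by role, of which 70 were in the table and 69 were tested. By limma 0 passed the adjusted threshold, while an unadjusted p under 0.05 was reached by 7 with a higher and 6 with a lower mean, against 15.3% of all features in either direction. edgeR and DESeq2 called 0 as well, with 10 and 14 of 69 at an unadjusted p under 0.05, against 14.5% and 15.9% of all features. In 5 genes the LINE-1a group lay above and in 8 below without overlap, where 9.88% and 12.3% of all features did. These shares are near the background. The median log2 fold change of the 69 was 0.03, equal to that of all features, and every adjusted p given below for these genes is limma's.

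Among receptors and scaffolds, 6 of 7 had a log2 fold change above 0. Shank3, a scaffold that Homer proteins bind, was at 0.68 (adjusted p = 0.325), with LINE-1a 1 at 1094 inside the dCas range of 845 to 1169. Grm5, a metabotropic glutamate receptor, was at 0.44 and Homer1 at 0.45. Without dCas 1 Grm5 was at 0.67, and without LINE-1a 2 Homer1 was at 0.23, with 0.15 in male libraries only.

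Of the 10 genes of the Gq family and its regulators, 4 lay above 0 and 6 below. After Rgs8 the smallest p belonged to Ric8a, a chaperone of G protein alpha subunits (-0.42, adjusted p = 0.360; -0.16 without LINE-1a 2), and Rgs4 (-0.32). Leaving out 1 library moved Rgs4 to between -0.57 without LINE-1a 1 and -0.07 without dCas 1. Of the other phospholipase C beta genes, Plcb1, the form of granule cells, was at 0.33 and Plcb3 at -0.09, and Plcb2 was too low to be tested. Plcb1 ran from 0.13 without dCas 3 to 0.59 without LINE-1a 1, and Plcb3 changed sign without dCas 3, to 0.36.

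Of the IP3 receptors and their partners, 3 of 7 were above 0. Itpr2, the form of glia, was at -0.15, with -0.23 without LINE-1a 1 and -0.08 without LINE-1a 2. Erlin2 and Rnf170 belong to the complex that tags active IP3 receptors for degradation, and they lay apart in opposite directions. Rnf170 was 427, 445 and 397 in dCas and 493, 669 and 518 in the LINE-1a group (log2 fold change 0.39, adjusted p = 0.325; 0.26 without LINE-1a 2). Erlin2 was 2839, 2342 and 2481 in dCas and 2309, 998 and 1956 in LINE-1a libraries (-0.62, adjusted p = 0.325), lowest in LINE-1a 2, without which the value was -0.26.

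Of the 8 other genes of IP3 turnover, 7 were below 0, the opposite direction from Inpp5a. Of these, 2 reached an unadjusted limma p under 0.05, and Itpka (-0.01) and Inpp5b (-0.09) were close to 0. Inpp1, which removes a phosphate from inositol bisphosphate, was 2651, 2753 and 3018 in dCas and 2447, 1707 and 2131 in LINE-1a libraries (-0.44, adjusted p = 0.325). Impa1, the monophosphatase that lithium inhibits, was 3431 ± 58.8 in the controls and 2610 ± 567 in LINE-1a vermis (-0.42, adjusted p = 0.325). Both lay below all controls in every LINE-1a library. Itpkb, an IP3 kinase, was at -0.41 with overlap. Without LINE-1a 2 the values were -0.30 for Inpp1, -0.24 for Impa1 and -0.17 for Itpkb, and without LINE-1a 1 Itpkb was at -0.65.

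Genes of PIP2 supply were above 0 in 6 of 9 cases. The lipid kinase Pi4kb was at 0.49 and the transfer protein Pitpnm3 at 0.43 (adjusted p = 0.325 each), Pitpnm3 without overlap, and the transfer protein Pitpnb was at -0.29. Without LINE-1a 2 Pitpnm3 was at 0.27 and Pitpnb at -0.12, and without LINE-1a 1 Pitpnb was at -0.43. On the diacylglycerol arm 8 of 12 were above 0. Cnr1, the cannabinoid receptor on parallel fibres, was at -0.36, below all controls, and Dgkb, a diacylglycerol kinase, at 0.33 and the channel Trpc1 at 0.40, or 0.25 without dCas 3.

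Store and cytosolic calcium genes had a log2 fold change above 0 in 5 of 12 cases. The groups did not overlap in 5 of the 12, 2 above and 3 below, against 22.1% of all features, and nothing particular to so short a list is read from it. Camk4, a calcium-dependent kinase abundant in granule cells, was 13436 ± 1409.9 in the controls and 19727 ± 3604 in LINE-1a vermis (0.54, adjusted p = 0.325). Ryr1, the ryanodine receptor of Purkinje cells, was at 0.40 and the store-operated channel Orai2 at -0.39, both apart between the groups. Of the relatives of Car8, Car11 was at 0.61 and Car10 at 0.30, both with overlap and in the opposite direction from Car8. Car11 was at 0.38 without dCas 1, and Car10 ran from 0.17 without LINE-1a 3 to 0.51 without LINE-1a 1.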

How the data were processed

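The authors deposited normalized counts, that is, a signal made of reads per feature over a size factor for each of 3 dCas and 3 LINE-1a libraries. The submitters' processing notes list, with no roles, DESeq2, SAMtools 1.9, STAR 2.5.3a, bedtools 2.27.1 and Bowtie2 2.2.9, and the builds GRCm38 and mm10. Neither the counting tool nor its strand setting is stated. All values (100%) came out as whole reads within 0.001 when divided by the value of 1 read. The table held 21927 rows, of which 890 were repeat elements by the names in the deposited repeat table.

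The main test was limma-trend 3.58.1 (R 4.3.3), two-sided, on log2(normalized count + 1) for 15800 features averaging 10 or more, with Benjamini-Hochberg adjustment over all of them and a threshold of 0.05. Fold changes on that scale understate the change of low genes. edgeR 4.0.16 and DESeq2 1.42.0 on whole reads were alternatives. Libraries of a group differed by far more than sampling noise (chi-square per degree of freedom 28.6 to 144.5). Exon lengths and positions came from GENCODE M21, promoters from RefSeq on GRCm38.p6. The genes and lists were chosen with earlier results of these data known. Named beside the 7 were up to 3 genes of smallest p from each role list, the Purkinje markers and the 3 nearest profiles of each gene, of which a part is printed. Some results under this rule are not reported here. The ratios and the split by choroid plexus markers were added after the values were seen.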

Additional observations from a re-analysis of the deposited data

How the results depend on the processing

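Under 22 alternatives, Itpr1 and Car8 kept a lower and Plcb4 and Inpp5a a higher LINE-1a mean. In alternatives that only left out libraries this direction was fixed, because the groups of these genes did not overlap. Except with array weights, 0 of the 7 genes and 0 of the 69 pathway genes were called. Array weights called 6 of the 7, 39 of the 69 and 9043 of all features. That fit gave a weight of 9.24 to dCas 2 and 6.15 to LINE-1a 3 and at most 0.527 to the others, so it rests on 2 libraries, and its estimation did not converge. Of all features the main test called 23. With equal totals 36 were called, with Purkinje marker scaling 55, with DESeq2 142, with sex as a covariate 3, in male libraries only 0 (2391 at an unadjusted p under 0.05 in limma), and in libraries high in choroid plexus markers 13. Leaving out 1 library gave 11 (without LINE-1a 3) to 40 (without dCas 1), with 14 without dCas 2 and 15 without dCas 3. The causes were not tested.

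The median over all features, a log2 fold change of 0.03, became 0.15 with equal totals and 0.27 with Purkinje marker scaling. Against that shift, signs turned for Gna11 (0.077 and 0.21), Plcb3 (0.0305 and 0.16) and Itpka (0.11 and 0.24), and for Itpr2 with Purkinje marker scaling (0.10). With DESeq2, Gnaq was -0.016 and Calb1 -0.0059. With sex as a covariate and in male libraries only, which give the same values, Homer3 was -0.26, Gnaq -0.0078, Calb1 -0.30, Dner -0.17 and Gng13 -0.22. With array weights Homer3 was -0.40, Plcb3 0.33, Calb1 -0.24, Dner -0.31 and Gng13 -0.040. In libraries low in choroid plexus markers Homer3 was -0.097 and Gnaq -0.042, and in those high in them Gnaq was -0.014 and Gna11 0.011.

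Leaving out 1 library gave values from -0.12 to 0.17 for Homer3, -0.038 to 0.040 for Gnaq, -0.087 to 0.0099 for Gna11, -0.32 to 0.36 for Plcb3, -0.19 to 0.27 for Itpka, -0.12 to 0.16 for Calb1 and -0.078 to 0.23 for Gng13. For Itpr1 they ran from -0.78 to -0.42, for Car8 from -0.69 to -0.32, for Inpp5a from 0.33 to 0.64 and for Plcb4 from 0.19 to 0.32. The smallest limma adjusted p among these 4 genes was then 0.0965, for Inpp5a without LINE-1a 1.

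A replicate block called 24 of all features and 0 of the 7 genes. Libraries of the same number correlated at -0.21, 0.14 and -0.09 in their deviations from the group means, and 2 of 6 correlated best with their own number. These values give no sign that the numbers pair the mice, but so few libraries cannot exclude it. The width of the intervals given shows the precision that 3 mice a group allow.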
